A study of Mus musculus with 6 samples.

Results

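The genes described here are 30 components of insulin, phosphoinositide 3-kinase (PI3K) and mTOR signalling, taken by gene symbol from a list of ligands, receptors, adaptors, kinases and substrates. All 30 were among the 12966 genes of the expression table, and all 30 were among the 11397 genes that had a mean of at least 1 FPKM and were tested. FPKM is a read level corrected for the length of the transcript and the size of the library. The RNA came from the brown fat of males of the strain C57BL/6J at 10 weeks of age, in 3 libraries from animals carrying floxed Bscl2 together with Ucp1-Cre (BKO) and 3 libraries from animals carrying floxed Bscl2 alone (Ctrl). The floxed allele was shared by both groups. The Cre is driven by the promoter of Ucp1, a gene of brown adipocytes, and was carried by BKO animals only, so its own effect and that of Bscl2 loss cannot be told apart. Nothing in the labels ties each library to its own animal, and p-values here reflect the spread among the libraries, part of which may be technical. Values of a group are always given in the order of its libraries, BKO-1 to BKO-3 and Ctrl-1 to Ctrl-3.

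Insulin and insulin-like growth factors bind receptor tyrosine kinases, which phosphorylate docking proteins of the IRS family and so recruit PI3K to the membrane. The lipid made by PI3K brings Akt to its activating kinases, and Akt then acts on glucose transport, glycogen synthesis, FOXO transcription factors and the TSC complex that restrains mTOR complex 1. In brown fat this pathway is known for glucose uptake, lipid synthesis and the differentiation of brown adipocytes. Most of its control is exerted by phosphorylation and location, which transcript levels do not report.

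Bscl2, the targeted gene, stood at 16.5, 16.9 and 18.9 FPKM in the BKO libraries, against 116, 104 and 106 FPKM in the Ctrl libraries. That is 16.03% of the Ctrl mean, in the direction of the labels (limma with Benjamini-Hochberg adjusted p = 3.95e-05). Brown adipocyte markers were present in every library, Ucp1 being between 2943 and 2979 FPKM in BKO and between 2484 and 3498 FPKM in Ctrl. Of the markers of other cells, those of macrophages differed most. All 22 macrophage markers were listed, their summed level was 211 to 263 FPKM in BKO and 76.6 to 124 FPKM in Ctrl, and 5 of 18 tested markers were higher in BKO past the adjusted threshold. Skeletal muscle markers, of which 13 of 17 were listed, summed to 191, 428 and 144 FPKM in BKO, and to 651, 96.3 and 169 FPKM in Ctrl. The corresponding ranges were 362 to 382 FPKM in BKO and 330 to 386 FPKM in Ctrl for 14 endothelial markers, and 610 to 660 FPKM in BKO and 475 to 609 FPKM in Ctrl for 14 preadipocyte and fibroblast markers. No listed marker was at 0 in all libraries. BKO-3 had the largest sum of FPKM, 2808874, against 1119228 to 1617963 in the other libraries. Without the 10 highest genes of each library the sum was 666165 in BKO-3 and 444313 to 492091 in the others. The median of the tested genes was 7.54 FPKM in BKO-3 and 7.14 to 7.64 FPKM in the others. BKO-3 also had 10 values at 0, against 90 to 111 in the others, so its lowest values differ in kind. Read depth is unknown.

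No component of the pathway changed past the adjusted threshold of 0.05. The lowest adjusted p among the 30 was 0.345 (limma with Benjamini-Hochberg adjustment over all tested genes), and 0.167% of all tested genes passed, 0.158% being higher and 0.00877% lower in BKO. At an unadjusted p below 0.05 there were 2 of 30, 1 higher and 1 lower in BKO, where 10.2% of all tested genes had such a p, 6.63% being higher and 3.52% lower. In 3 of 30 the BKO and Ctrl values did not overlap, all 3 lower in BKO, against 15.9% of all tested genes without overlap, 9.06% higher and 6.82% lower. The adjusted and unadjusted shares of the 30 genes were thus not above those of the whole table, and the share that was lower without overlap, 10%, stood beside 6.82%.

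The median log2 difference of the 30 genes, BKO minus Ctrl on the log2(FPKM + 1) scale, was -0.02, and that of all tested genes was 0.0056. The estimates ran from -0.37 for Irs2 to 0.50 for Grb14, with 20 negative and 10 positive. The negative share was 66.7%, against 48.4% of all tested genes, and 14 of the 30 signs changed when 1 library or another was left out. On this scale, which understates the change of low genes, the 95% interval lay between -1 and 1 for each of the 30 genes and between -0.5 and 0.5 for 26 of them. The other 4 were Irs1, Irs2, Grb14 and Foxo1, whose libraries varied most. Among all 11397 tested genes, the interval lay between -1 and 1 for 10982, or 96.4%, and between -0.5 and 0.5 for 8996. In tissue RNA, fewer cells of a type and less RNA per cell cannot be told apart.

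**Figure D1:**
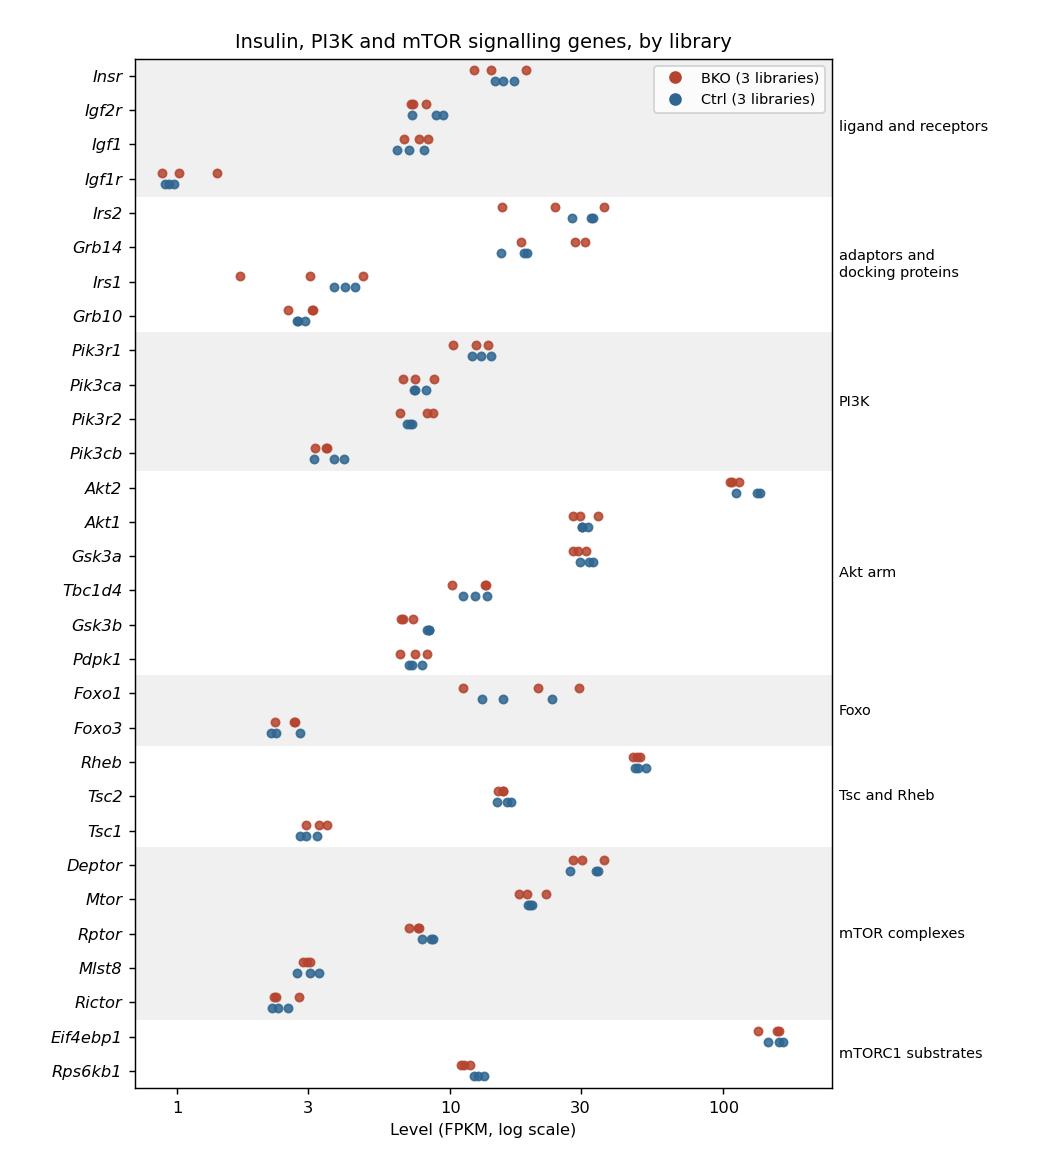
Level of each of the 30 genes in FPKM on a log axis, grouped by role, with the 3 BKO libraries in red above the 3 Ctrl libraries in blue. The means over all 6 libraries span from 1.02 FPKM for Igf1r to 154 FPKM for Eif4ebp1, and in 27 of the 30 genes the BKO and Ctrl points overlap.

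**Figure D2:**
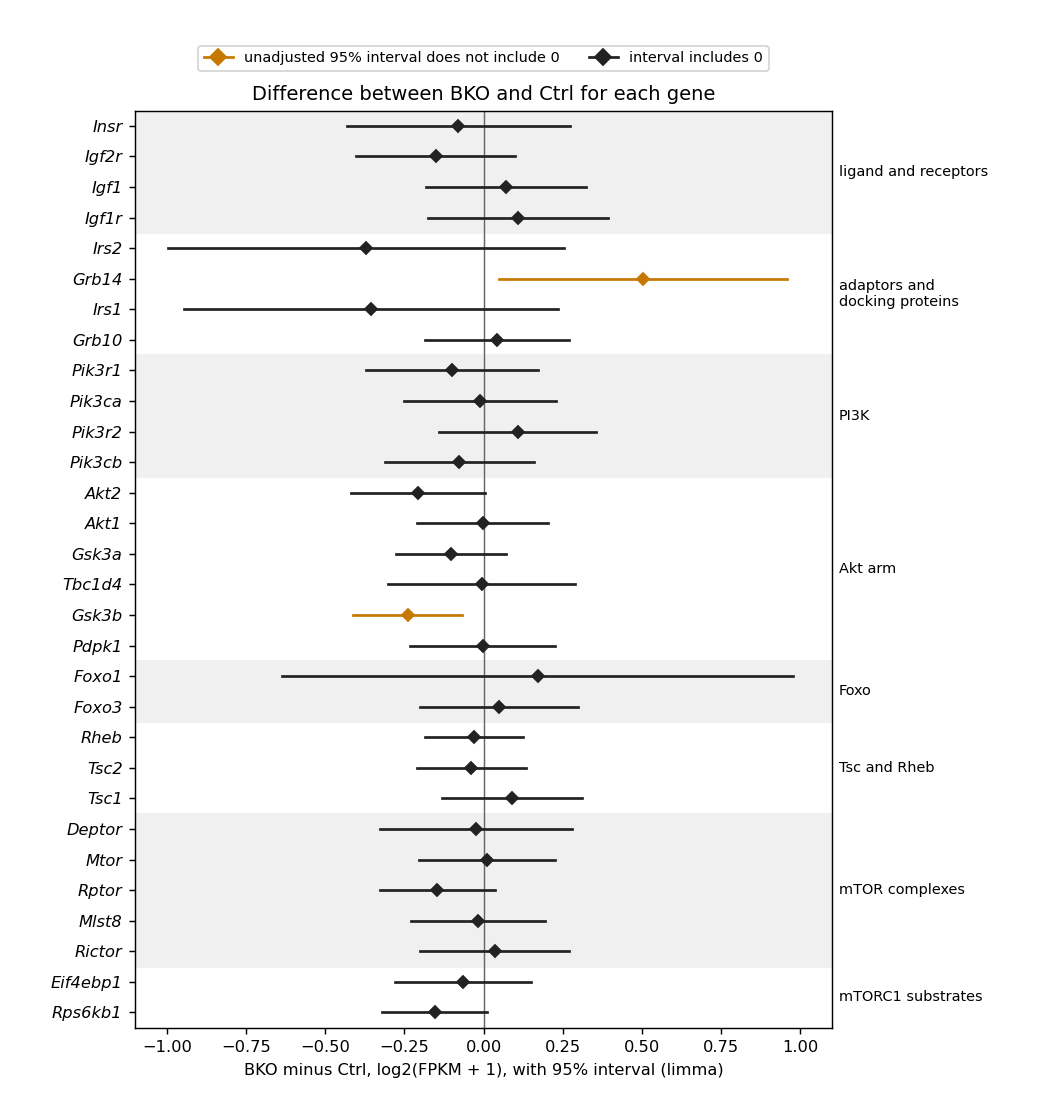
Difference of BKO minus Ctrl on the log2(FPKM + 1) scale for each gene, with its 95% interval from limma, grouped by role. The interval leaves out 0 for Gsk3b and Grb14, neither of which passed after adjustment, and it is widest for Foxo1, Irs2 and Irs1.

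Among the ligand and receptors, the insulin receptor gene Insr was the most abundant per length. It stood at 14.1, 12.2 and 18.9 FPKM in BKO, against 15.6, 14.5 and 17.1 FPKM in Ctrl. The BKO libraries held both the highest and the lowest of the 6 values, so the groups overlapped. The log2 difference was -0.08 (SE 0.15, 95% interval -0.43 to 0.27, adjusted p = 0.896, limma). Igf1r, the receptor of insulin-like growth factor 1, was the lowest of the 30 genes at 1.097 ± 0.271 FPKM in BKO and 0.935 ± 0.0356 FPKM in Ctrl (SD, n = 3 each). Igf1r ranked 11368 of 11397 by mean level, near the lower limit of the test. Igf1, the growth factor itself, averaged 7.55 ± 0.758 FPKM in BKO and 7.15 ± 0.832 FPKM in Ctrl. Macrophages are a known source of this factor, and the Igf1 difference of 0.07 on the log2 scale (95% interval -0.18 to 0.32) stands beside a median of 0.92 for the macrophage markers, whose part in it was not tested. Igf2r, which clears insulin-like growth factor 2 and carries lysosomal enzymes, averaged 7.53 ± 0.517 FPKM in BKO and 8.51 ± 1.118 FPKM in Ctrl, and its groups overlapped.

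The docking proteins Irs1 and Irs2 link the receptors to PI3K, and their transcripts varied widely among BKO libraries. Their promoters are printed first because both genes, alone among the 27 members with an entry in the RefSeq promoter table, hold 2 motifs close together. The window runs from 250 bases before to 50 bases after the annotated start on GRCm38.p6. Irs1 lies on the minus strand at chr1:82291390-82291689, and Irs2 on the minus strand at chr8:11008880-11009179. Capitals mark the E-box CACGTG and the core TGTTTTG of insulin response elements, both searched on either strand.
Irs1: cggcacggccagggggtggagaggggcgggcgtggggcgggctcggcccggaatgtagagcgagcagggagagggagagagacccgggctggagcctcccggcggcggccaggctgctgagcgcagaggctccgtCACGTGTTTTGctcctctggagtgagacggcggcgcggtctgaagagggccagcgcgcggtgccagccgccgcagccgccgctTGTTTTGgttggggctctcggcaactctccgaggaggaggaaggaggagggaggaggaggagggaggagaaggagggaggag
Irs2: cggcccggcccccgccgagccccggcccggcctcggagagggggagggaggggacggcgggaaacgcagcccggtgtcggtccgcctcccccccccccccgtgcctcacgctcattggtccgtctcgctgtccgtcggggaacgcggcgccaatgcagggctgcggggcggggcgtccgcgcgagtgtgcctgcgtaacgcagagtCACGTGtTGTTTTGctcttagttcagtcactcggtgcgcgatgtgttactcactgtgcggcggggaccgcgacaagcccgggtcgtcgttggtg
In Irs1 the E-box began 115 bases before the start and shared its last 2 letters with the first of 2 TGTTTTG matches. In Irs2 the E-box began 44 bases before the start, and 1 base separated it from the single TGTTTTG match. CACGTG was present in 7.15% of all 32851 promoter windows of this length, TGTTTTG in 6.28% and both in 0.408%. The other members with CACGTG were Igf2r and Rheb. GTAAACA, a forkhead motif, was found in 1 of the 27 members, Akt1, and in 3.65% of all windows. These matches describe the letters of the windows and do not show binding.

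Irs2 stood at 24.2, 15.5 and 36.5 FPKM in BKO, against 33.4, 27.9 and 32.8 FPKM in Ctrl. Irs1 stood at 3.06, 1.69 and 4.79 FPKM in BKO, against 4.45, 4.10 and 3.76 FPKM in Ctrl. In both genes BKO-3 was the highest and BKO-2 the lowest of all 6 libraries, so the Ctrl values lay inside the BKO range. The highest BKO library exceeded the lowest 2.83-fold for Irs1 and 2.36-fold for Irs2, while the corresponding Ctrl ranges were 1.18-fold and 1.196-fold. Across all tested genes the median range was 1.21-fold among BKO libraries and 1.19-fold among Ctrl libraries. The log2 difference was -0.36 for Irs1 (SE 0.25, 95% interval -0.94 to 0.23, limma adjusted p = 0.684) and -0.37 for Irs2 (SE 0.27, 95% interval -0.996 to 0.25, limma adjusted p = 0.691). Without BKO-2 both differences were -0.07, and without BKO-3 they were -0.62 for Irs1 and -0.66 for Irs2, so single libraries set their size. BKO-2 had the highest muscle marker sum of the BKO libraries, 428 FPKM, while Ctrl-1 had 651 FPKM. With the muscle marker level as a covariate the differences were -0.35 for Irs1 and -0.37 for Irs2. That fit concerns the difference between the groups and cannot say what set the level of BKO-2. The cause of the low values in BKO-2 was not tested.

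This order of libraries was shared by other genes. Insr, Igf1r, Irs1, Irs2, Pik3ca and Pdpk1 were all highest in BKO-3 and lowest in BKO-2 among the 6 libraries, which is 20.0% of the 30 genes, against 4.75% of all tested genes. This order was noticed in these data and was not tested.

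Grb14 and Grb10 encode adaptors that bind the activated receptors and inhibit them. Grb14 stood at 31.1, 28.7 and 18.1 FPKM in BKO, against 18.5, 19.0 and 15.4 FPKM in Ctrl. BKO-1 and BKO-2 lay above every Ctrl library, and BKO-3 lay among them. The mean was 1.47 times that of Ctrl, the largest ratio above 1 among the 30 genes, with a log2 difference of 0.50 (SE 0.19, 95% interval 0.05 to 0.96, unadjusted p = 0.0344, limma adjusted p = 0.441). Over the alternatives its adjusted p ranged from 0.0882, without BKO-3, to 0.823, without Ctrl-2. Grb10 averaged 2.93 ± 0.337 FPKM in BKO and 2.81 ± 0.102 FPKM in Ctrl (SD, n = 3 each), with a log2 difference of 0.04.

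**Figure D3:**
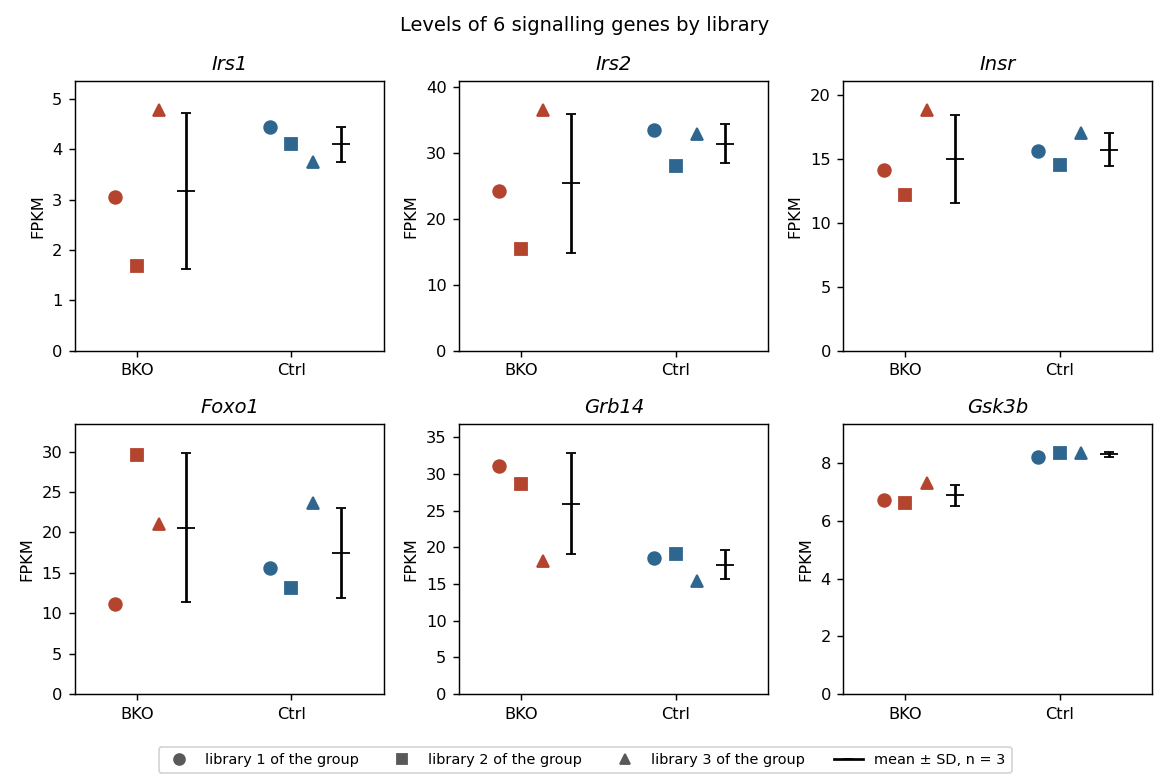
Level in FPKM of Irs1, Irs2, Insr, Foxo1, Grb14 and Gsk3b in each BKO library (red, left) and each Ctrl library (blue, right), with the mean and SD of 3 libraries beside them. The square of BKO-2 is the lowest point for Irs1, Irs2 and Insr and the highest for Foxo1, and for Gsk3b the 3 BKO points lie below the 3 Ctrl points.

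The PI3K genes differed little between the groups. Pik3r1, the regulatory subunit that docks on IRS proteins, was the most abundant of the 4, at 10.2, 12.4 and 13.7 FPKM in BKO, against 14.1, 12.9 and 11.98 FPKM in Ctrl. Its groups overlapped and its log2 difference was -0.10 (95% interval -0.37 to 0.17, limma). Pik3r2, the second regulatory subunit, averaged 7.77 ± 1.105 FPKM in BKO and 7.10 ± 0.141 FPKM in Ctrl. The catalytic subunit genes averaged 7.61 ± 0.9996 FPKM in BKO and 7.65 ± 0.445 FPKM in Ctrl for Pik3ca, and 3.41 ± 0.181 FPKM in BKO and 3.66 ± 0.451 FPKM in Ctrl for Pik3cb. Within each library the level of Pik3r1 was 1.18, 1.52 and 2.10 times that of Pik3r2 in BKO, against 1.98, 1.79 and 1.72 times in Ctrl (exact two-sided permutation p = 0.5).

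In the Akt arm none of the 6 genes passed the adjusted test, and the group means of Akt1, Pdpk1 and Tbc1d4 were nearly equal. Akt2, the Akt isoform known for insulin-stimulated glucose uptake, was the most abundant, at 114, 107 and 106 FPKM in BKO, against 136, 133 and 111 FPKM in Ctrl. Only BKO-1 reached above the lowest Ctrl library, and the log2 difference was -0.21 (SE 0.09, 95% interval -0.42 to 0.0042, limma adjusted p = 0.496). Akt1, the isoform known for growth, stood at 28.2, 34.6 and 29.7 FPKM in BKO, against 32.01, 30.2 and 30.2 FPKM in Ctrl, with a log2 difference of -0.0023. Akt2 was therefore 3.57 ± 0.473 times as abundant per length as Akt1 in BKO and 4.11 ± 0.371 times in Ctrl (SD, n = 3 each, exact two-sided permutation p = 0.2, adjusted to 0.4 over 8 ratios).

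Glycogen synthase kinase 3 is switched off by Akt, and of its isoform genes Gsk3b had the lowest p of the 30 genes. Gsk3b stood at 6.73, 6.62 and 7.31 FPKM in BKO, against 8.21, 8.35 and 8.34 FPKM in Ctrl. The groups did not overlap, and the gap between the highest BKO and the lowest Ctrl library was wider than the range within either group. The BKO mean was 0.829 times the Ctrl mean, with a log2 difference of -0.24 (SE 0.07, 95% interval -0.41 to -0.07, unadjusted p = 0.0129, limma adjusted p = 0.345). The difference stayed between -0.28 and -0.22 when any 1 library was left out, and the adjusted p over all alternatives lay between 0.133 and 0.823. Gsk3a averaged 29.6 ± 1.65 FPKM in BKO and 31.8 ± 1.72 FPKM in Ctrl, and its groups overlapped. Tbc1d4, which holds back glucose transporter vesicles until Akt phosphorylates it, averaged 12.3 ± 1.92 FPKM in BKO and 12.3 ± 1.23 FPKM in Ctrl. Pdpk1, the kinase that activates Akt, averaged 7.39 ± 0.843 FPKM in BKO and 7.39 ± 0.440 FPKM in Ctrl.

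Foxo1, a transcription factor that Akt keeps out of the nucleus, had the widest interval of the 30 genes. It stood at 11.2, 29.6 and 21.0 FPKM in BKO, against 15.5, 13.1 and 23.7 FPKM in Ctrl. The highest library exceeded the lowest 2.65-fold in BKO and 1.81-fold in Ctrl, so both groups were uneven. The library with the most Foxo1, BKO-2, was the one with the least Irs1, Irs2 and Insr. This inverse order did not hold across the other libraries. BKO-1, with the least Foxo1, was below BKO-3 in Irs1 (3.06 and 4.79 FPKM), Irs2 (24.2 and 36.5 FPKM) and Insr (14.1 and 18.9 FPKM). The log2 difference was 0.17 (95% interval -0.64 to 0.98, limma), and without BKO-2 it was -0.13. Foxo3, a relative of Foxo1, averaged 2.55 ± 0.229 FPKM in BKO and 2.43 ± 0.321 FPKM in Ctrl.

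The TSC complex inactivates the small GTPase Rheb, which in turn activates mTOR complex 1, and the differences of these genes were small. Rheb, the most abundant of them, stood at 46.8, 49.5 and 48.5 FPKM in BKO, against 48.7, 51.9 and 47.3 FPKM in Ctrl. Its groups overlapped, and its 95% interval of -0.18 to 0.12 was the narrowest of the 30 genes. Tsc2 averaged 15.4 ± 0.401 FPKM in BKO and 15.9 ± 1.003 FPKM in Ctrl, and Tsc1 3.26 ± 0.283 FPKM in BKO and 3.003 ± 0.224 FPKM in Ctrl.

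Among the mTOR complex genes Rptor, the scaffold of complex 1, was lower in each BKO library than in any Ctrl library. It stood at 7.65, 7.03 and 7.62 FPKM in BKO, against 7.85, 8.64 and 8.49 FPKM in Ctrl. The nearest BKO and Ctrl values differed by less than the range within either group, and the log2 difference was -0.15 (SE 0.08, 95% interval -0.33 to 0.03, limma adjusted p = 0.582). Rictor, the scaffold of complex 2, averaged 2.45 ± 0.299 FPKM in BKO and 2.37 ± 0.153 FPKM in Ctrl. The kinase gene Mtor averaged 19.8 ± 2.36 FPKM in BKO and 19.6 ± 0.376 FPKM in Ctrl, with a log2 difference of 0.01 (95% interval -0.20 to 0.23). Deptor, an inhibitor of the kinase, was the most abundant gene of this class and stood at 36.7, 30.2 and 28.0 FPKM in BKO, against 34.2, 34.9 and 27.4 FPKM in Ctrl. Mlst8, a subunit of both complexes, averaged 2.97 ± 0.0864 FPKM in BKO and 3.03 ± 0.277 FPKM in Ctrl.

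The substrates of mTOR complex 1 were both below Ctrl on average. Eif4ebp1, a repressor of translation that the complex inactivates, was the most abundant of the 30 genes and ranked 409 of 11397. It stood at 157, 160 and 134 FPKM in BKO, against 165, 160 and 145 FPKM in Ctrl, and its groups overlapped. Rps6kb1, the kinase of ribosomal protein S6, stood at 10.9, 11.2 and 11.8 FPKM in BKO, against 12.7, 12.2 and 13.3 FPKM in Ctrl. All 3 BKO values were below all 3 Ctrl values, with a log2 difference of -0.15 (SE 0.07, 95% interval -0.32 to 0.01, limma adjusted p = 0.516).

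Ratios between related genes compare levels inside 1 library and so do not depend on scaling between libraries. Of 8 ratios, 1 did not overlap between the groups, and with 3 against 3 libraries the exact two-sided permutation p cannot go below 0.1. Insr was 13.9, 13.9 and 13.5 times as abundant per length as Igf1r in BKO, against 16.8, 14.9 and 18.9 times in Ctrl (exact permutation p = 0.1, adjusted to 0.4). The BKO ratios lay within a narrow band even though both genes varied among those libraries. Irs2 was 8.22 ± 0.803 times as abundant as Irs1 in BKO and 7.68 ± 0.965 times in Ctrl (SD, n = 3 each), a narrower relative spread among BKO libraries than that of either level. Rptor exceeded Rictor 3.05 ± 0.330 times in BKO and 3.53 ± 0.299 times in Ctrl (exact permutation p = 0.3).

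**Figure D4:**
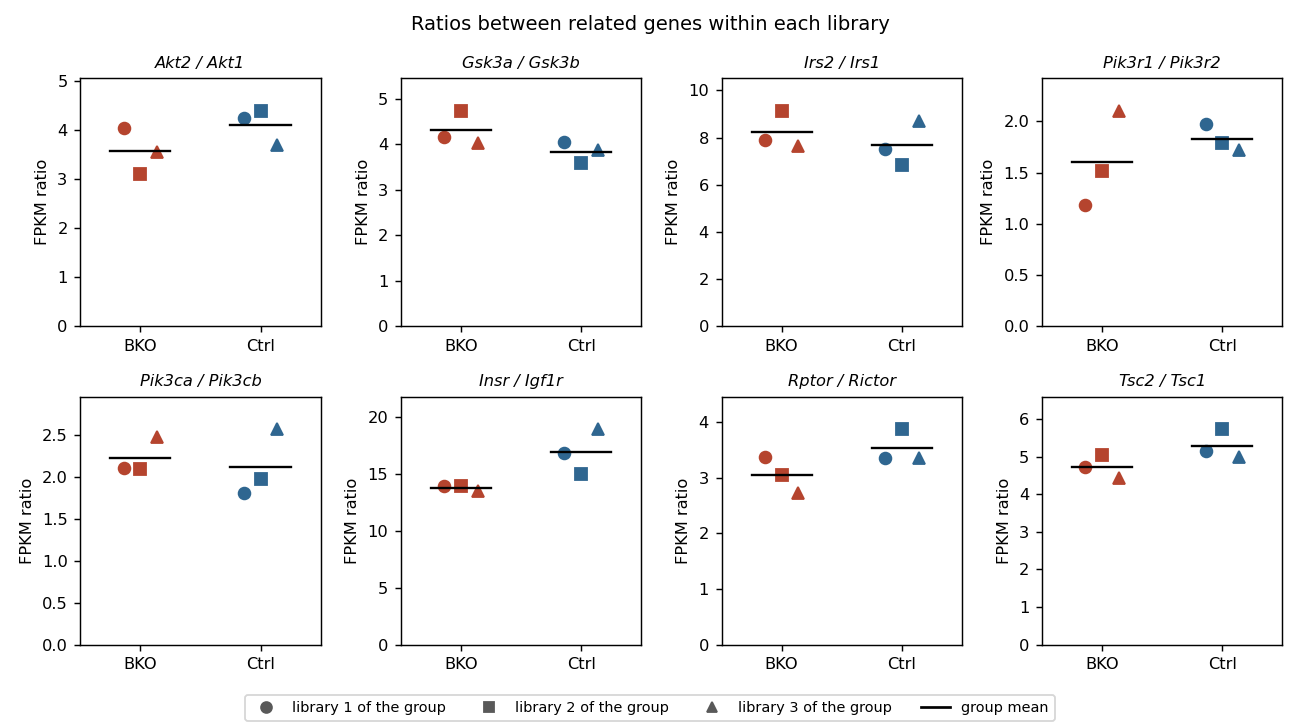
Ratio of FPKM between 8 pairs of related genes in each BKO library (red, left) and each Ctrl library (blue, right), with the group mean as a line and the axes starting at 0. The Insr to Igf1r ratio is the single pair without overlap, at 13.5 to 13.9 in BKO and 14.9 to 18.9 in Ctrl.

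The library kit was named as TruSeq RNA, and its reads were taken not to be marked by strand. On that reading, exon overlap limits some of these values. In GENCODE vM21, 10 of the 30 genes share exon bases with a gene on the opposite strand, and 5 of those partners were listed. Irs1 shares 30.9% of its exon bases with Gm9747, which stood at 15.4, 12.02 and 19.4 FPKM in BKO, against 19.0, 17.3 and 14.4 FPKM in Ctrl. As for Irs1, BKO-3 was the highest and BKO-2 the lowest of the 6 libraries. Foxo1 shares 7.78% with Gm20402, which stood at 2.36, 8.16 and 5.92 FPKM in BKO, against 2.55, 3.53 and 7.26 FPKM in Ctrl. Gsk3a shares 28.3% with 9130221H12Rik, Mlst8 22.5% with Bricd5 and Tsc2 7.20% with Pkd1. Rps6kb1 shares 1.79% with Rnft1, which stood at 10.8, 11.5 and 11.2 FPKM in BKO, against 12.3, 12.6 and 11.6 FPKM in Ctrl. As for Rps6kb1, the Rnft1 values were lower in BKO without overlap. Over the shared bases, reads of such partners cannot be told apart from those of the signalling genes. The remaining exon bases are not affected by this overlap. The annotation behind the FPKM values was not given, so the overlap in it may differ.

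A further 157 genes of the pathway were placed in 10 lists, of which 143 were listed and 138 tested. None of the 138 passed the adjusted threshold by limma, and 16, or 11.6%, had an unadjusted p below 0.05, 9 higher and 7 lower in BKO, against 10.2% of all tested genes. The values did not overlap in 15 genes that were higher, or 10.9%, and in 6 that were lower, or 4.35%, against 9.06% and 6.82% of all tested genes. Dok1 and Inpp5d are among both the 9 and the 15 higher genes, and Sesn3 is among the 15. Their Ctrl means were below the filter of 1 FPKM, which they passed through their BKO values, so they add no support to these counts. The median log2 difference of the 138 was 0.0019. Genes with the lowest p of each list, and the transporter genes Slc2a4 and Slc2a1, are described in the order of the pathway.

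Upstream of the receptors, the median of 7 ligand and binding protein genes was 0.16, 6 of 7 being positive. Igfbp4, a binding protein that holds insulin-like growth factors, averaged 15.1 ± 1.35 FPKM in BKO and 12.5 ± 1.32 FPKM in Ctrl (SD, n = 3 each, limma adjusted p = 0.469), and Igfbp5 10.96 ± 1.91 FPKM in BKO and 8.76 ± 0.937 FPKM in Ctrl. Both proteins are also made by stromal cells, and the preadipocyte and fibroblast markers had a median of 0.29. Their part in the binding protein values was not tested. Among 16 adaptors and brakes near the receptor the median was 0.04. Sh2b2, an adaptor of the insulin receptor, stood at 41.4, 46.3 and 39.4 FPKM in BKO, against 48.9, 47.8 and 49.2 FPKM in Ctrl, without overlap (limma adjusted p = 0.440). Dok1, a docking protein also found in leukocytes, averaged 1.298 ± 0.0970 FPKM in BKO and 0.757 ± 0.342 FPKM in Ctrl. By mean level Dok1 ranked 11336 of 11397, near the lower limit of the test.

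The 13 other phosphoinositide kinases and phosphatases had a median of 0.03. Inpp5d, a phosphatase of blood cells, averaged 1.43 ± 0.291 FPKM in BKO and 0.875 ± 0.180 FPKM in Ctrl, beside macrophage markers that were higher in BKO as given above, and their part in it was not tested. By mean level Inpp5d ranked 11111 of 11397, near the lower limit of the test. Akt and its regulators had a median of -0.02 over 13 genes. Trib3, a pseudokinase that binds Akt, had the largest difference of all 138 genes and stood at 8.88, 9.35 and 3.83 FPKM in BKO, against 2.65, 2.70 and 1.85 FPKM in Ctrl. All BKO values exceeded all Ctrl values, with a log2 difference of 1.23 (SE 0.29, limma adjusted p = 0.248). With 1 library left out the Trib3 difference lay between 1.032 and 1.58, and its limma adjusted p between 0.0285, without BKO-3, and 0.635, without Ctrl-2. Trib1, another pseudokinase, averaged 28.1 ± 4.72 FPKM in BKO and 36.0 ± 3.09 FPKM in Ctrl.

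In the glucose transporter arm the median was 0.06 over 13 genes. Pde3b is the phosphodiesterase through which insulin lowers cyclic AMP in adipocytes, and was placed in this list though it is not a transporter. It averaged 69.0 ± 11.2 FPKM in BKO and 85.2 ± 4.56 FPKM in Ctrl (limma adjusted p = 0.438).

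Around the mTOR complexes, 10 partners and inhibitors had a median of -0.02. Ddit4, a stress-induced inhibitor of mTOR complex 1, stood at 19.3, 69.6 and 53.8 FPKM in BKO, against 22.7, 13.6 and 35.2 FPKM in Ctrl. It varied within both groups and overlapped between them, and its log2 difference was 0.88 (SE 0.50, limma adjusted p = 0.603). Fkbp1a, the rapamycin-binding protein, averaged 60.5 ± 4.86 FPKM in BKO and 66.9 ± 4.39 FPKM in Ctrl. The 28 amino acid sensing genes had a median of -0.04. Sesn2, a leucine sensor that restrains mTOR complex 1, came nearest to the threshold of the 138 genes and stood at 11.8, 14.9 and 13.99 FPKM in BKO, against 7.86, 7.92 and 8.10 FPKM in Ctrl. The groups were well apart, with a mean 1.70 times that of Ctrl and a log2 difference of 0.69 (SE 0.0952, 95% interval 0.47 to 0.92, limma adjusted p = 0.0568). Its adjusted p over the alternatives ranged from 0.0335, with library weights, to 0.277. Slc3a2, the heavy chain of amino acid exchangers, averaged 39.1 ± 5.96 FPKM in BKO and 29.0 ± 10.2 FPKM in Ctrl. Sesn2, Trib3, Ddit4 and Slc3a2 are also known as targets of the integrated stress response. The groups overlapped for Ddit4 and Slc3a2 (limma adjusted p = 0.603 and 0.552), and a part of that response in these values was not tested.

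The 9 genes of AMPK and its upstream kinase complex had a median of -0.05. Stk11, the kinase that activates AMPK, averaged 53.9 ± 4.12 FPKM in BKO and 47.4 ± 2.13 FPKM in Ctrl without overlap, while its scaffold Cab39 averaged 53.4 ± 4.15 FPKM in BKO and 59.9 ± 1.77 FPKM in Ctrl (limma adjusted p = 0.496 and 0.516). The 16 other mTOR complex 1 substrates and translation genes had a median of -0.04. Eif4ebp2, a relative of Eif4ebp1, averaged 34.1 ± 4.49 FPKM in BKO and 39.2 ± 0.508 FPKM in Ctrl, and Eef2k, the kinase of an elongation factor, 1.95 ± 0.367 FPKM in BKO and 2.64 ± 0.403 FPKM in Ctrl.

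The 13 FOXO relatives and target genes had a median of 0.08, with 9 positive and 4 negative. Cited2, a transcriptional regulator, stood at 4.81, 5.39 and 4.54 FPKM in BKO, against 3.84, 2.99 and 2.87 FPKM in Ctrl, without overlap (log2 difference 0.49, SE 0.11, limma adjusted p = 0.248). Bcl6, a transcriptional repressor, averaged 26.4 ± 4.51 FPKM in BKO and 18.6 ± 4.35 FPKM in Ctrl, and its groups overlapped (limma adjusted p = 0.415).

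**Figure D5:**
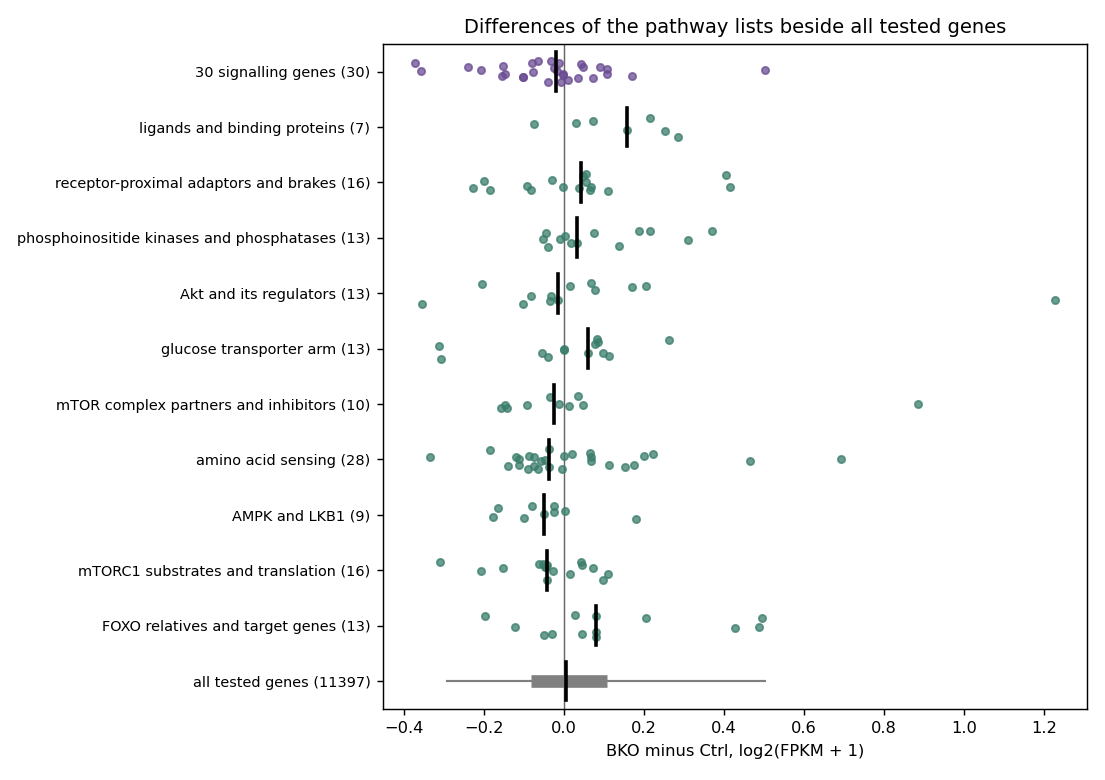
Differences of BKO minus Ctrl on the log2(FPKM + 1) scale for the 30 signalling genes and for 10 lists of further pathway genes, each point 1 gene, each black bar the median and the number of genes in brackets. For all tested genes the thick bar spans the middle 50% and the thin line the middle 95%, from -0.29 to 0.50. Sesn2, Trib3 and Ddit4 lie to the right of that line, at 0.69, 1.23 and 0.88.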

How the data were processed

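Libraries were made with the TruSeq RNA kit, per the labels' protocols. The deposited values are FPKM per gene, which the authors made with CASAVA 1.8, TopHat2 2.0.12 and Cufflinks 2.2.1 on build NCBIM37, per the submitters' processing notes. In the sources used here, settings and gene annotation were not given. The file's column names matched the names in the sample descriptions, where BKO libraries are called WT and Ctrl libraries MT. As FPKM hold no counts, count models were left out, and depth is unknown.

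Values were tested as log2(FPKM + 1), a scale that understates changes of low genes. The test was limma 3.58.1 (R 4.3.3) with a trend on mean level and no covariate, over the 11397 genes averaging 1 FPKM or more, with Benjamini-Hochberg adjustment. Ratios were tested by exact permutation in scipy 1.17.1. In a simulation of BKO against Ctrl with 11397 genes, of which 200 were altered, 84% of the 2-fold and 97% of the 4-fold alterations were called, and 7 of 188 calls were false. The altered genes were drawn from those with a mean above 5 FPKM, and the noise was normal and independent among libraries and genes. The rates therefore do not cover lower genes, among them Igf1r and Irs1, or differences smaller than 2-fold.

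The members, lists and alternatives were chosen with earlier results of these data known. Described library by library were members without overlap between groups, those at an unadjusted p below 0.05 and the most abundant of each role, and from each pathway list the 2 genes of lowest p, of which some are not reported here. Irs1, Akt1, Slc2a4, Slc2a1 and the partners on the opposite strand were added after their values were seen. The 14 alternatives covered the pseudocount, the filter, rescaling, library weights, a muscle covariate, the replicate block and each library left out. Promoters are those of RefSeq on GRCm38.p6, another build than the authors', and 27 of 30 members had an entry, leaving out Insr, Deptor and Eif4ebp1.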

Additional observations from a re-analysis of the deposited data

How the results depend on the processing

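No member of the pathway passed the adjusted threshold in any of the 14 alternatives, in which 22 members (at a mean of at least 5 FPKM) or all 30 were tested and 1 to 5 had an unadjusted p below 0.05. Of all tested genes 19 passed, against 54 with library weights, 10 at a mean of at least 5 FPKM, 12 with no filter, 9 with the muscle score as covariate, and 6 to 32 with 1 library left out (6 without BKO-1, 9 without Ctrl-2, 32 without BKO-3). The cause was not tested, except that the filters also change how many genes are tested. Of the pathway lists 0 genes passed, 1 with library weights (Sesn2) and 0 to 1 with a library left out (Trib3, without BKO-3). The difference of Bscl2 lay between -2.63 and -2.53 with 1 library left out.

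Small differences changed sign. With library weights Pdpk1 was at 0.012 and Mlst8 at 0.044, with median ratio rescaling Mtor at -0.0021, and with quantile normalization Mtor at -0.0098 and Rictor at -0.0082. With 1 library left out, 14 of the 30 members changed sign, with ranges of -0.24 to 0.052 for Insr, -0.099 to 0.065 for Pik3ca, -0.19 to 0.0084 for Pik3r1, -0.074 to 0.071 for Pdpk1, -0.086 to 0.058 for Akt1, -0.072 to 0.12 for Tbc1d4, -0.13 to 0.53 for Foxo1, -0.00075 to 0.12 for Foxo3, -0.060 to 0.0063 for Rheb, -0.078 to 0.078 for Mtor, -0.035 to 0.075 for Rictor, -0.070 to 0.029 for Mlst8, -0.13 to 0.057 for Deptor and -0.12 to 0.014 for Eif4ebp1.

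Libraries with the same replicate number deviated from their group means with correlations of 0.20, -0.10 and -0.10 across genes, which does not pair them. With the replicate block 25 genes passed, 15 of them among the 19, and no member did. Depth is unknown, which leaves the precision of low genes such as Igf1r unstated.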
